A study of Mus musculus with 6 samples.

Results

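The genes described here are 49 components of DNA double-strand break and interstrand crosslink repair, among the 24063 gene symbols in the deposited tables. They are a fixed list of symbols from the known pathways, a list drawn up with earlier results of these data known. Of the 49, 4 are damage kinases, 4 mark breaks on chromatin, 7 join ends, 7 belong to the MRN complex, end resection and helicases, 11 to homologous recombination, 13 to the Fanconi anemia and crosslink pathway, and 3 are Polq, Parp1 and Xrcc1. RNA sequencing was run on mouse cerebellar tumour cells that the labels call stem-like medulloblastoma cells, with 2 libraries for each of 3 CRISPR guides. The guide sgGal4-4, directed at a yeast gene that mice lack, served as control and is labelled WT. The guides sgMiat-6 and sgMiat-96 are directed at the long non-coding RNA Miat and labelled as its knockdown. Every group, control included, carries the genotype Math1-Cre; SmoM2, in which the Math1 (Atoh1) promoter drives Cre in granule neuron progenitors and so turns on SmoM2, a constitutively active Smoothened allele. The labels give no animal age, no form of Cas9 and no statement of separate cultures, so p-values measure only the spread between these libraries, which may be technical.

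A double-strand break is first sensed by the kinases Atm and Prkdc and by the MRN complex, while Atr answers to stretches of single-stranded DNA. The break is then either resealed directly by end joining, with the Ku proteins at its core, or resected and copied from the sister chromatid by homologous recombination, which is limited to S and G2 phase. Crosslinks that stall replication are unhooked by the Fanconi anemia proteins, whose core complex ubiquitylates the pair Fancd2 and Fanci, and are then passed to recombination. In granule neuron progenitors, the cells from which this class of medulloblastoma arises, rapid division makes replication a constant source of such lesions.

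The target, Miat, was counted 140 and 139 times in the controls and 0 times in each of the 4 Miat guide libraries. The libraries held between 27324587 and 29671461 counts over all rows, and between 18438909 and 19650274 over the 1 row kept per symbol. Of the markers of the named tissue, Atoh1 was at 0 in all libraries, while Zic1 and Zic2 of the granule lineage and the stem markers Sox2, Nes and Vim were detected in each. Barhl1 of the granule lineage was at most 0.198 CPM in any library, and the stem marker Prom1 at most 0.0510 CPM. Granule progenitor markers summed to between 97.0 and 102 CPM in the controls and between 182 and 203 CPM with the Miat guides, and all 4 of them that were tested (Zic1, Zic2, Neurod1 and Pax6) rose with both guides. Stem markers summed to between 2908 and 3022 CPM in the controls and between 4378 and 5124 CPM with the Miat guides, where of 5 tested Vim rose, Sox9 and Msi1 fell and Sox2 and Nes were not called. Astrocyte markers summed to between 2739 and 2819 CPM in the controls and between 611 and 764 CPM with the Miat guides, mostly Slc1a3 and Apoe. Of these 6 markers, 5 were lower and S100b higher, and the defining marker Gfap was at most 0.876 CPM in any library. Oligodendrocyte lineage markers summed to between 1910.3 and 1965 CPM in the controls and between 3071 and 4805 CPM with the Miat guides, mostly Olig1 and Olig2. Markers of microglia summed to at most 2.63 CPM, those of endothelium to at most 7.19 CPM and those of fibroblasts to at most 9.89 CPM in any library. Of the fibroblast markers, Pdgfra was at most 0.0515 CPM in the controls and between 3.88 and 8.68 CPM with the Miat guides, while Col1a1 was at 9.74 and 7.60 CPM in the controls and at most 0.981 CPM with the Miat guides. The mean length of the transcripts counted, weighted by counts, fell from library group to library group. It was 3575 and 3504 bp in sgGal4-4, 3255 and 3070 bp in sgMiat-6, and 2659 and 2835 bp in sgMiat-96. The part of marker shifts in the results on repair genes was not tested.

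Repair genes were lower more often than higher in the Miat guide libraries. Levels are given as CPM, the usual count scaled to library size, here after TMM correction for composition, and differences as log2 fold changes with their standard error. A gene was called where the p-value of edgeR's quasi-likelihood test, adjusted by Benjamini-Hochberg over all 13219 genes tested, was under 0.05. All 49 genes passed the filter on low counts. With both Miat guides against sgGal4-4, 26 of the 49 fell and 9 rose, where 33.4% of all tested genes were called lower and 33.1% higher. Their median log2 fold change was -0.42, against 0.00 for all tested genes. In bulk RNA, fewer cells of one type and less RNA per cell cannot be told apart. With sgMiat-6 alone 17 fell and 5 rose (26.1% and 26.9% of all tested genes), and with sgMiat-96 alone 25 fell and 7 rose (34.2% and 34%). These comparisons share the sgGal4-4 libraries. In 21 of the 49 genes all 4 Miat guide libraries lay below both controls, and in 10 all lay above, where 33% of all tested genes lay wholly below and 34% wholly above. Left out of the fit in turn, a single control library reduced the 9 that rose to 2 (without sgGal4-4 replicate 1) or 3 (without sgGal4-4 replicate 2), where the share of all tested genes called higher also dropped, to 25.4% and 24.9%. The same libraries reduced the 5 that rose with sgMiat-6 to 1 and 3 (19.3% and 19.0% of all tested genes), and the 7 that rose with sgMiat-96 became 3 without sgGal4-4 replicate 1 or sgMiat-96 replicate 1 (27.7% and 29.1%). Scaled by total counts alone, 27 fell and 4 rose with both guides (39.3% and 27.1% of all tested genes), and 32 fell and 3 rose with sgMiat-96 (42.0% and 26.8%).

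**Figure D1:**
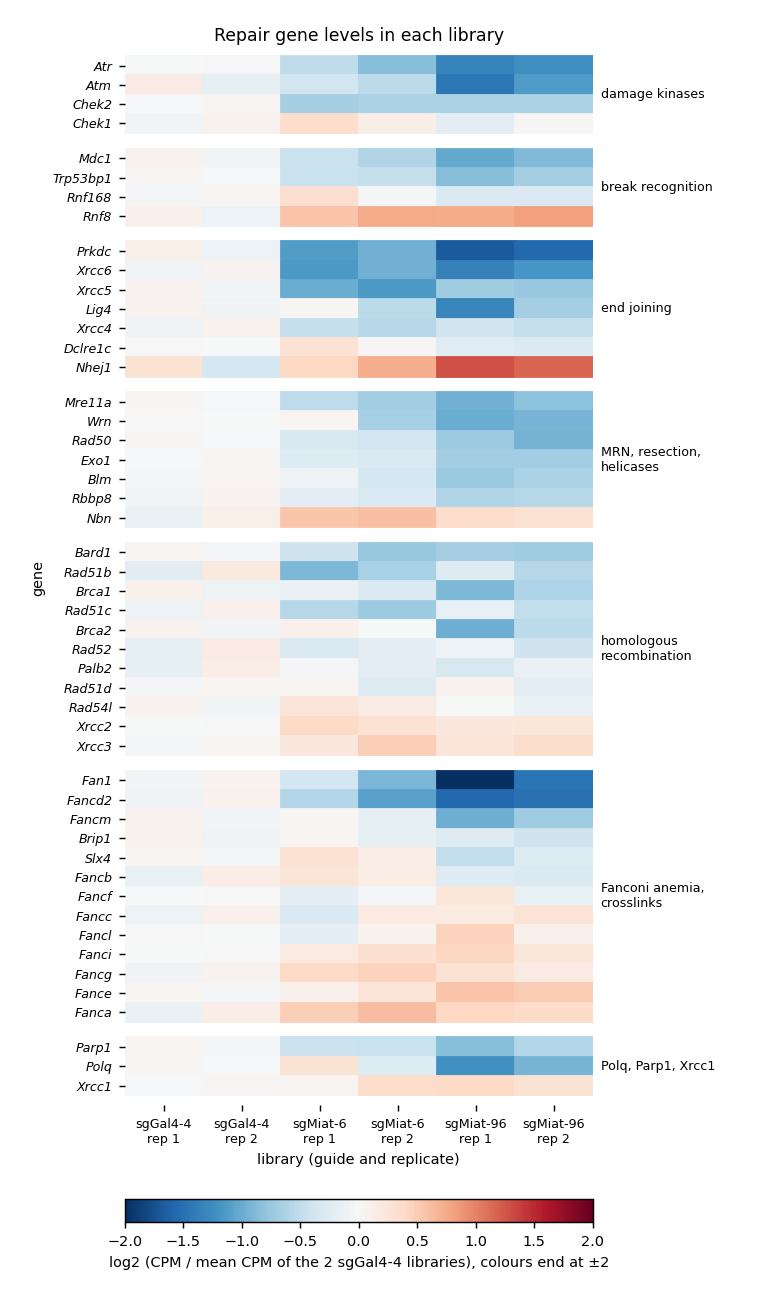
Level of each of the 49 repair genes (rows, grouped by branch) in each of the 6 libraries (columns), as the log2 ratio of its CPM to the mean CPM of the 2 sgGal4-4 libraries, with red for higher and blue for lower. The colours end at ±2. Xrcc6, Xrcc5, Prkdc, Atm, Atr and Chek2 are blue in all 4 Miat guide libraries, and Nhej1, Rnf8, Nbn and Fanca are red in all 4.

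The shift moved with transcript length. The 49 transcripts have a median length of 3750 bp, from 846 bp (Nhej1) to 12674 bp (Prkdc), against 2844 bp for all tested genes. Among all tested genes under 3000 bp the median log2 fold change with both guides was 0.26, and among those over 6000 bp it was -0.59. The 12 repair genes over 6000 bp had a median of -0.56, and 10 of them fell, where 66.1% of all tested genes of that length fell. The 20 repair genes between 3000 and 6000 bp had a median of -0.30 against -0.19 for all genes of that length. For the 17 shorter ones the median was -0.03 against 0.26. With the trend over length removed from each library, 16 of the 49 were lower and 10 higher with both guides (31.2% and 34.5% of all tested genes), and the median was -0.03. For sgMiat-6 the counts were then 13 lower and 12 higher (26.4% and 30%), and for sgMiat-96 16 lower and 9 higher (30.9% and 34.1%). Without sgGal4-4 replicate 1 these numbers became 5 higher with both guides, 6 with sgMiat-6 and 5 with sgMiat-96 (26.1%, 22.1% and 27.0% of all tested genes). Without sgGal4-4 replicate 2 they became 10 lower with both guides (23.8%), 6 higher with sgMiat-6 (21.8%), and 5 higher and 9 lower with sgMiat-96 (26.7% and 23.9%). Of the genes called lower with both guides, 15 were called lower in both scalings. These were Atr, Chek2, Mdc1, Prkdc, Xrcc4, Xrcc5, Xrcc6, Mre11a, Rbbp8, Bard1, Rad51b, Rad51c, Fancd2, Fan1 and Parp1. Called higher in both were Rnf8, Nbn, Xrcc2, Fanca, Fancg and Fanci. How many of all tested genes were called in both scalings was not counted, so these numbers stand without a background share. Whether the length trend arose in the cells or in the libraries was not tested.

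**Figure D2:**
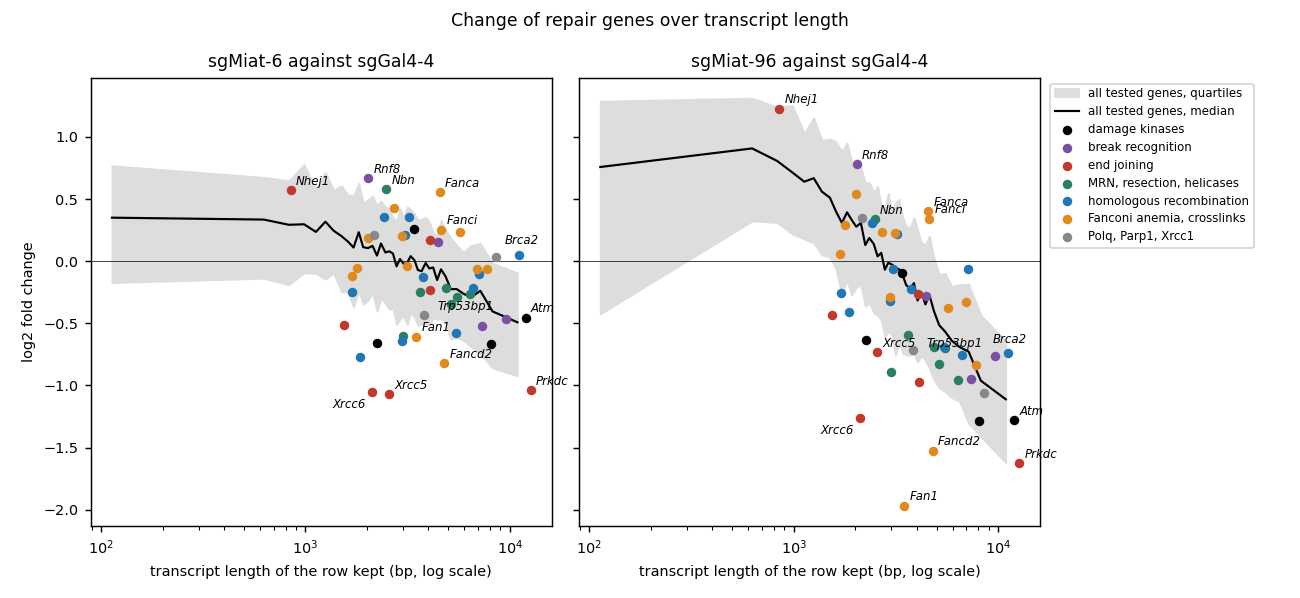
Log2 fold change of the 49 repair genes (points, coloured by branch) against transcript length in bp on a log axis, for sgMiat-6 (left) and sgMiat-96 (right), over the median (line) and quartiles (grey band) of all tested genes in 40 bins of equal gene number. The long gene Trp53bp1 lies within the band. Atm lies to the right of the band's end, at values between the quartiles of the last bin. Xrcc6 and Fancd2 lie below the band with both guides and Fanca lies above it with both.

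**Figure D3:**
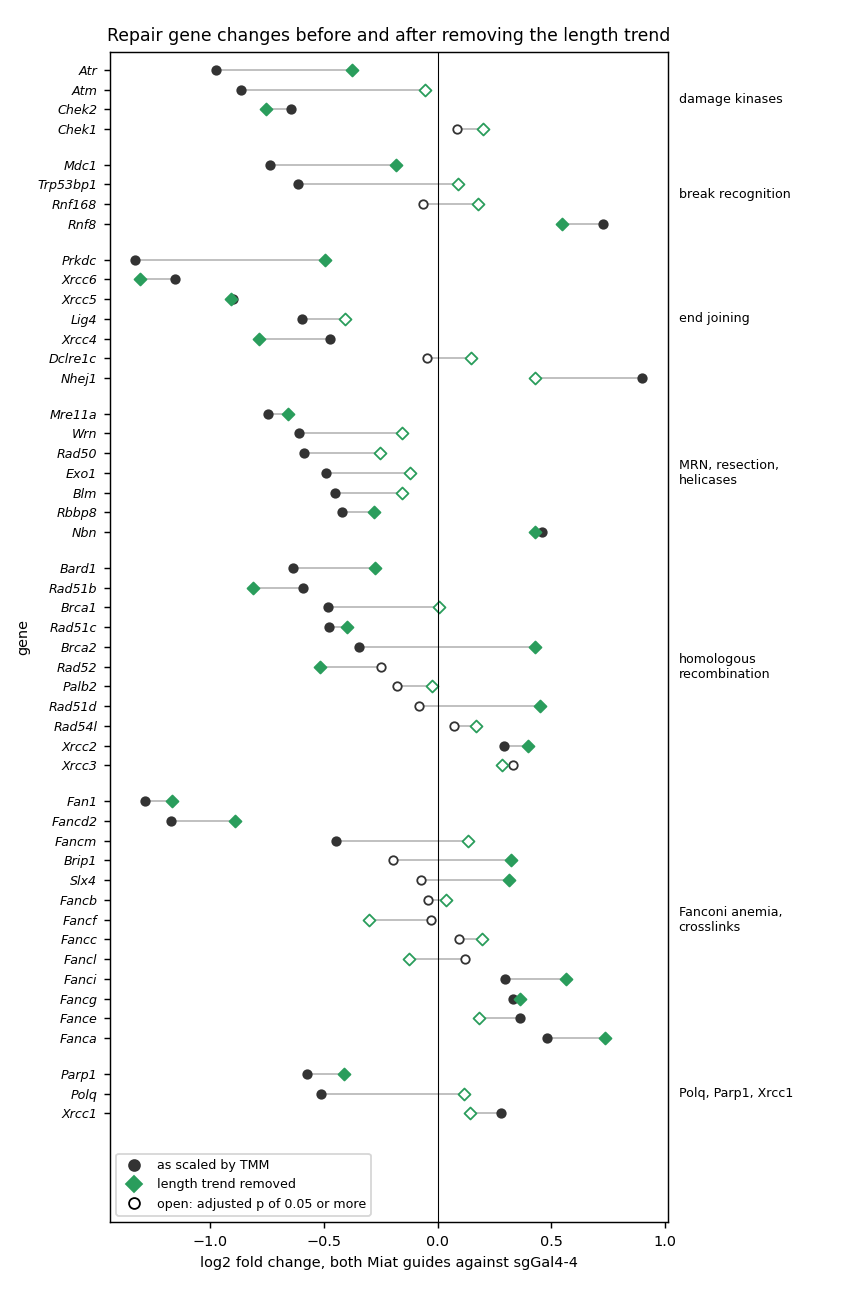
Log2 fold change of each repair gene with both Miat guides against sgGal4-4, as scaled by TMM (circles) and with the length trend removed (diamonds), where open symbols mark an adjusted p of 0.05 or more. The gap is widest for the longest transcripts, such as Prkdc at -1.33 and -0.49 and Atm at -0.87 and -0.06, and small for Xrcc5 at -0.90 and -0.91.

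Stretches upstream of start sites were read from RefSeq for GRCm38.p6, which gave 44 windows, each of 250 bases before to 50 after a start, for 40 of the 49 genes. Missing were Prkdc, Nbn, Rad50, Rbbp8, Wrn, Exo1, Rad51d, Xrcc2 and Fancd2. The E2F motif TTTCCCGC, searched on both strands like all motifs named here, was in 7 of the 44 windows (15.9%) and in 1.07% of the 32851 windows of all genes. It is shown because its share exceeded that of all windows by the largest ratio, a choice made after these shares were seen. The 7 stretches below run 5′ to 3′ on the gene's strand, with the motif, or its complement on the other strand, in capitals and 10 bases on each side.
Bard1: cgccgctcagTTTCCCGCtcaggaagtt
Brca2: ttaggccacaGCGGGAAAcagacacaca
Chek2: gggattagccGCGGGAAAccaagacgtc
Fancg: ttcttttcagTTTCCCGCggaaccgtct
Mdc1: cttcagcctgTTTCCCGCcggtagccgc
Rad51c: ccccgcgaggGCGGGAAAagcaaggggt
Xrcc6: gggggtggaaGCGGGAAAtgcgagtggg
On GRCm38.p6 these lie at Bard1 chr1:71103164-71103191 (minus), Brca2 chr5:150522443-150522470 (plus), Chek2 chr5:110839821-110839848 (plus), Fancg chr4:43010336-43010363 (minus), Mdc1 chr17:35841472-35841499 (plus), Rad51c chr11:87404942-87404969 (minus) and Xrcc6 chr15:82016313-82016340 (plus). Counted from the start in the RefSeq window, the motif's first base lies between 209 bases before it (Bard1) and 5 before it (Rad51c). That start can differ from the start of the transcript matched to the counted row. The matched transcripts start at chr1:71103146 for Bard1 and at chr11:87404523 for Rad51c. Of these 7 genes, 6 fell and 1 rose with both guides, with a median of -0.64. Of the 33 other genes with a window, 14 fell and 6 rose, with a median of -0.18. Among all tested genes, 231 had the motif, and 93 of them fell and 60 rose, with a median of -0.09, whereas 3207 of the 9592 without it fell and 3227 rose. After removal of the length trend, 5 of the 7 repair genes were lower and 2 higher, and of the 33 without the motif 8 were lower and 5 higher. Of all tested genes, 83 of the 231 with it were then lower and 74 higher, and 2986 of the 9592 without it were lower and 3391 higher. The difference between these sets was not tested. A match is a run of letters, and no binding was measured. Of the other motifs, the E2F motif TTTGGCGC was in 0 of the 44 windows (0.514% of all windows), the CHR motif TTTGAA in 9.09% (17.9%), CCAAT in 56.8% (37.4%), the Sp1 motif GGGCGG in 65.9% (35.7%), the ETS motif CCGGAAGT in 9.09% (3.89%), the NRF1 motif GCGCATGC in 11.4% (2.71%) and the CRE motif TGACGTCA in 4.55% (1.79%).

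For the strongest changes, 150 bases without an annotated exon before the start could be shown for 3 genes, again with motifs in capitals. Fan1 and Xrcc5 are among the largest falls and Nhej1 had the largest rise with both guides.
Fan1: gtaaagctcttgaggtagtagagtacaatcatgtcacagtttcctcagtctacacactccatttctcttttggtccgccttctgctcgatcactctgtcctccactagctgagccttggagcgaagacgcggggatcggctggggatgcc
Xrcc5: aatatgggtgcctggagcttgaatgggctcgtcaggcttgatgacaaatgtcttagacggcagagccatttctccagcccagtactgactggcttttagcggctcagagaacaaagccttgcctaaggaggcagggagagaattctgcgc
Nhej1: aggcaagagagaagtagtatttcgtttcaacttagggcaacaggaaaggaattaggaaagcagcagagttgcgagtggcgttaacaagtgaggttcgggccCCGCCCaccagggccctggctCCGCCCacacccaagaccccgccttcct
They lie at Fan1 chr7:64374096-64374245 (minus), Xrcc5 chr1:72307271-72307420 (plus) and Nhej1 chr1:75125227-75125376 (minus). The Nhej1 stretch holds the Sp1 motif 2 times on the other strand, starting 49 and 28 bases before the start of its RefSeq window. The other stretches hold none of the motifs searched, although the whole Xrcc5 window, of which only a part is printed, holds CCAAT and the NRF1 motif. That Nhej1 window lies at the gene's outer end, near chr1:75125200, while the transcript matched to the counted row starts at chr1:75046639. Its stretch is therefore not next to the start of the transcript whose rise is given.

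In end joining, 5 of 7 genes fell (71.4%) and 1 rose (14.3%) with both guides, beside 33.4% and 33.1% of all tested genes. The branch's median was -0.60. With the length trend removed 4 of the 7 were lower (57.1%, beside 31.2% of all tested genes). Xrcc6 (Ku70, chr15:81987835-82040085, plus strand) and Xrcc5 (Ku80, chr1:72307421-72394952, plus strand) form the ring that threads onto broken ends. Xrcc6 was at 95.4 and 104 CPM in sgGal4-4, 45.0 and 51.0 in sgMiat-6, and 39.1 and 44.0 in sgMiat-96. Both Miat guides stood below both controls without overlap, and the log2 fold change was -1.16 ± 0.10 (SE; adjusted p = 5.42e-07) with both guides. Xrcc5 was at 18.9 and 17.4 CPM in sgGal4-4, 9.12 and 8.17 in sgMiat-6, and 11.1 and 10.7 in sgMiat-96. All Miat guide libraries were again below the controls, here lower with sgMiat-6 than with sgMiat-96, and the log2 fold change was -0.90 ± 0.13 (SE; adjusted p = 5.38e-05). Prkdc (chr16:15637866-15842235, plus strand), the catalytic subunit of the DNA-dependent protein kinase that Ku recruits, was at 29.3 and 24.98 CPM in sgGal4-4, 12.5 and 13.9 in sgMiat-6, and 8.43 and 9.18 in sgMiat-96. The groups did not overlap, and its log2 fold change of -1.33 ± 0.13 (SE; adjusted p = 1.37e-06) was the lowest of the 49. With the length trend removed it was -0.49 (adjusted p = 0.00463), compared with -1.31 (adjusted p = 7.05e-08) for Xrcc6 and -0.91 (adjusted p = 3.49e-05) for Xrcc5. Xrcc4, which holds the end joining ligase, fell by 0.47 ± 0.12 (SE; adjusted p = 0.00421), and its value with the length trend removed was -0.79. Lig4, that ligase, had a log2 fold change of -0.60 ± 0.20 (SE; adjusted p = 0.0158), and with the trend removed -0.41 (adjusted p = 0.0546). Nhej1 (XLF), a partner of Xrcc4 and with 846 bp the shortest of the 49 transcripts, was at 2.68 and 1.72 CPM in sgGal4-4, 2.93 and 3.62 in sgMiat-6, and 5.40 and 4.91 in sgMiat-96. It was higher in every Miat guide library, at 0.90 ± 0.25 (SE; adjusted p = 0.00627), but with the length trend removed the value was 0.43 (adjusted p = 0.126). Dclre1c (Artemis), the nuclease that opens hairpin ends, had -0.05 ± 0.17 (SE; adjusted p = 0.822). Left out singly, sgGal4-4 replicate 2 ended the calls of Nhej1 (adjusted p = 0.144) and Xrcc4 (0.104), and sgGal4-4 replicate 1 or sgMiat-96 replicate 1 that of Lig4 (adjusted p = 0.0721 and 0.0659).

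The chromosome of a gene moved with its value. Tested genes on chromosome 1 had a median log2 fold change of -0.49 with both guides and those on chromosome 15 of -0.41, while the medians of the other chromosomes lay between -0.16 and 0.18. Xrcc5, Nhej1, Bard1, Exo1 and Parp1 lie on chromosome 1 and Xrcc6 on chromosome 15. Relative to the chromosome's median, Xrcc6 was at -0.75, Xrcc5 at -0.41, Bard1 at -0.15, Parp1 at -0.09, Exo1 at 0.00 and Nhej1 at 1.39. The part of the chromosome shift in these values was not tested.

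**Figure D4:**
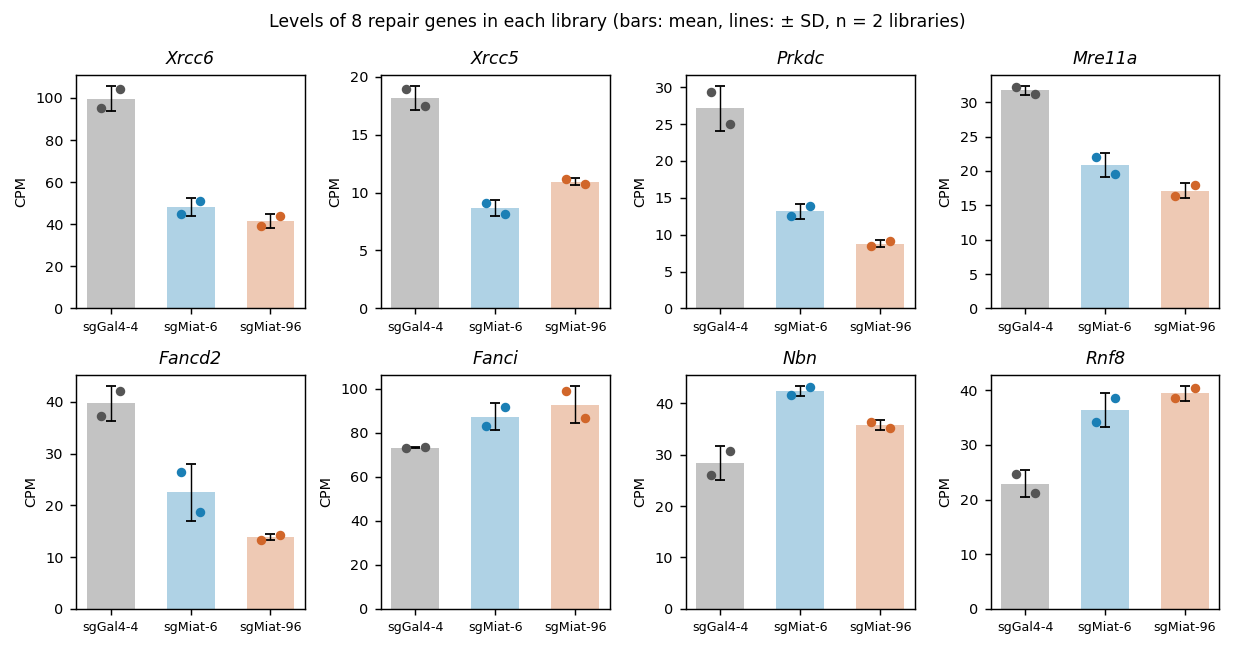
CPM in each library (points) of 8 repair genes, with bars for the mean and lines for ± SD over the 2 libraries of each guide, on axes that start at 0. Xrcc6, Xrcc5, Prkdc, Mre11a and Fancd2 are lower in all 4 Miat guide libraries than in both controls, and Fanci, Nbn and Rnf8 are higher in all 4.

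Among the damage kinases, 3 of the 4 fell (75%, beside 33.4% of all tested genes) and Chek1 did not pass the test. With the length trend removed 2 of the 4 were lower (50%, beside 31.2% of all tested genes). Atm (chr9:53439149-53536740, minus strand), the kinase that answers double-strand breaks, was at 56.2 and 44.6 CPM in sgGal4-4, 38.8 and 34.8 in sgMiat-6, and 18.6 and 22.9 in sgMiat-96. Its levels declined in the order control, sgMiat-6, sgMiat-96 without overlap, at -0.87 ± 0.13 (SE; adjusted p = 4.74e-05) with both guides. With 11964 bp it is also one of the longest transcripts, and with the length trend removed its value was -0.06 (adjusted p = 0.593). Atr (chr9:95857597-95951781, plus strand), the kinase of stalled replication forks, was at 31.3 and 31.9 CPM in sgGal4-4, 22.3 and 17.5 in sgMiat-6, and 12.5 and 13.4 in sgMiat-96. It took the same order as Atm, at -0.98 ± 0.13 (SE; adjusted p = 1.81e-05), and remained lower with the length trend removed, at -0.38 (adjusted p = 0.00625). Chek2 (chr5:110839979-110874145, plus strand), the effector kinase downstream of Atm, was at 31.4 and 32.1 CPM in sgGal4-4, 19.9 and 20.4 in sgMiat-6, and 20.4 and 20.4 in sgMiat-96. All 4 Miat guide libraries stood at nearly one level, below both controls, and the log2 fold change was -0.65 ± 0.11 (SE; adjusted p = 0.000165). Its transcript is short, and with the length trend removed the value was -0.75 (adjusted p = 1.69e-05). Chek1, the effector downstream of Atr and a gene of S phase, was at 29.7 and 32.8 CPM in sgGal4-4, 40.3 and 34.4 in sgMiat-6, and 27.0 and 31.7 in sgMiat-96. These ranges overlapped, and its log2 fold change was 0.08 ± 0.12 (SE; adjusted p = 0.559). For sgMiat-6 alone Chek1 was called higher once the length trend was removed, at 0.32 (adjusted p = 0.0263).

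The chromatin mediators of the break signal split. Mdc1 (chr17:35841515-35859670, plus strand), the scaffold that binds the phosphorylated histone at a break, was at 186 and 169.9 CPM in sgGal4-4, 130.1 and 117 in sgMiat-6, and 87.4 and 96.7 in sgMiat-96. Every Miat guide library was below the controls, and the log2 fold change was -0.74 ± 0.09 (SE; adjusted p = 1.41e-05), or -0.19 (adjusted p = 0.0218) with the length trend removed. Rnf8 (chr17:29614790-29644991, plus strand), the ubiquitin ligase that Mdc1 recruits, was at 24.7 and 21.1 CPM in sgGal4-4, 34.2 and 38.6 in sgMiat-6, and 38.5 and 40.4 in sgMiat-96. It rose with each guide without overlap, by 0.72 ± 0.12 (SE; adjusted p = 0.000131) with both, and stayed higher with the length trend removed at 0.55 (adjusted p = 0.000487). Trp53bp1 (53BP1), which shields ends from resection, was at 69.9 and 67.4 CPM in sgGal4-4, 50.3 and 49.3 in sgMiat-6, and 38.0 and 42.7 in sgMiat-96. It fell as scaled, at -0.62 ± 0.10 (SE; adjusted p = 0.000103), but its transcript of 9624 bp followed the length trend and the value without it was 0.09 (adjusted p = 0.359). Rnf168, which extends the ubiquitin mark begun by Rnf8, had -0.06 ± 0.11 (SE; adjusted p = 0.635).

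In the branch of the MRN complex, resection and helicases, 6 of 7 fell (85.7%, beside 33.4% of all tested genes) and Nbn rose. The branch's median was -0.49. With the length trend removed 2 of the 7 were lower (28.6%) and 1 higher (14.3%), beside 31.2% and 34.5% of all tested genes. The 3 subunits of the MRN complex did not move together. Mre11a (chr9:14784654-14837123, plus strand), its nuclease, was at 32.2 and 31.2 CPM in sgGal4-4, 22.1 and 19.6 in sgMiat-6, and 16.4 and 17.9 in sgMiat-96. All Miat guide libraries were below both controls, at -0.75 ± 0.11 (SE; adjusted p = 7.87e-05), and the fall remained with the length trend removed, at -0.66 (adjusted p = 8.33e-05). Rad50, its long coiled-coil subunit, was at 41.3 and 39.8 CPM in sgGal4-4, 32.6 and 31.4 in sgMiat-6, and 24.6 and 21.0 in sgMiat-96. It too fell without overlap, at -0.59 ± 0.11 (SE; adjusted p = 0.000351), whereas its value with the length trend removed was -0.25 (adjusted p = 0.0508). Nbn (chr4:15957925-15992589, plus strand), the subunit that binds Atm, was at 26.0 and 30.7 CPM in sgGal4-4, 41.7 and 43.1 in sgMiat-6, and 36.4 and 35.1 in sgMiat-96. It was higher in every Miat guide library, most with sgMiat-6, at 0.46 ± 0.11 (SE; adjusted p = 0.00273), and 0.43 (adjusted p = 0.00161) with the length trend removed. Rbbp8 (CtIP), which starts resection with MRN, was at 41.2 and 45.0 CPM in sgGal4-4, 37.4 and 35.1 in sgMiat-6, and 28.3 and 29.0 in sgMiat-96. Its libraries did not overlap the controls, and the log2 fold change was -0.42 ± 0.10 (SE; adjusted p = 0.00276), or -0.28 (adjusted p = 0.0109) with the trend removed. Wrn, a helicase and exonuclease, was at 19.2 and 19.1 CPM in sgGal4-4, 19.8 and 12.1 in sgMiat-6, and 9.67 and 10.04 in sgMiat-96. The first sgMiat-6 library reached the control level and the other 3 did not, and the log2 fold change was -0.61 ± 0.17 (SE; adjusted p = 0.00659). For Wrn, the helicase Blm and the exonuclease Exo1, values with the length trend removed were -0.16, -0.16 and -0.12, and none of the 3 was then called. As scaled, Blm was at -0.45 ± 0.11 (SE; adjusted p = 0.00266) and Exo1 at -0.49 ± 0.10 (SE; adjusted p = 0.000617). Without sgGal4-4 replicate 1 the adjusted p of Nbn was 0.113, and without sgGal4-4 replicate 2 that of Rbbp8 was 0.0837.

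Of the 11 homologous recombination genes, 5 fell (45.5%) and 1 rose (9.09%), beside 33.4% and 33.1% of all tested genes. The branch's median was -0.25. With the length trend removed 4 were lower (36.4%) and 3 higher (27.3%), beside 31.2% and 34.5% of all tested genes. Brca1, the ubiquitin ligase subunit that favours resection and recombination, was at 56.2 and 48.99 CPM in sgGal4-4, 47.8 and 42.9 in sgMiat-6, and 28.1 and 34.3 in sgMiat-96. Its Miat guide libraries lay below both controls, closely so with sgMiat-6, and the log2 fold change was -0.48 ± 0.11 (SE; adjusted p = 0.00235). With the length trend removed it was 0.00 (adjusted p = 0.968). Bard1, its obligate partner, was at 53.4 and 50.5 CPM in sgGal4-4, 38.8 and 30.7 in sgMiat-6, and 32.4 and 31.8 in sgMiat-96. It fell with each guide, at -0.64 ± 0.11 (SE; adjusted p = 0.000255) with both, and was -0.28 (adjusted p = 0.0159) with the trend removed. Brca2, a central mediator of recombination, was at 28.2 and 25.5 CPM in sgGal4-4, 28.8 and 26.8 in sgMiat-6, and 13.7 and 18.4 in sgMiat-96. The sgMiat-6 libraries overlapped the controls and the sgMiat-96 libraries lay below them, and the value with both guides was -0.35 ± 0.13 (SE; adjusted p = 0.0348). With 11133 bp, Brca2 took the opposite sign once the length trend was removed, at 0.43 (adjusted p = 0.00351). Rad51b, which also assists recombination, was at 9.32 and 12.5 CPM in sgGal4-4, 5.85 and 6.94 in sgMiat-6, and 9.11 and 7.33 in sgMiat-96. The controls differed by more than the gap to the nearest Miat guide library, and the log2 fold change was -0.59 ± 0.17 (SE; adjusted p = 0.00916). Rad51c and Xrcc2, which act in the same step, had -0.48 ± 0.14 (SE; adjusted p = 0.00809) and 0.29 ± 0.11 (SE; adjusted p = 0.0322), in opposite directions. Of the 5 that were not called, Xrcc3 was at 0.33 (adjusted p = 0.0551) and Palb2, the bridge between Brca1 and Brca2, at -0.18. The other uncalled genes were Rad51d at -0.08, the mediator Rad52 at -0.25 and the motor protein Rad54l at 0.07. With the length trend removed Rad51d was 0.45 (adjusted p = 0.0137), a value that rests on the row of 7095 bp kept for this gene. That row is a non-coding RefSeq transcript, 1 of 9 rows listed for Rad51d. Without a single control library 5 of these calls ended. Left out, sgGal4-4 replicate 1 gave an adjusted p of 0.0619 for Brca1, 0.246 for Brca2 and 0.208 for Xrcc2, and sgGal4-4 replicate 2 gave 0.0640 for Brca2, 0.201 for Xrcc2, 0.234 for Rad51b and 0.142 for Rad51c. The call of Brca2 also ended without sgMiat-96 replicate 1 (adjusted p = 0.101).

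In the Fanconi anemia branch 4 of 13 rose (30.8%) and 3 fell (23.1%), beside 33.1% and 33.4% of all tested genes. The branch's median was -0.03. With the length trend removed 5 were higher (38.5%) and 2 lower (15.4%), beside 34.5% and 31.2% of all tested genes. The branch's 2 central substrates moved apart. Fancd2 (chr6:113531682-113597017, plus strand), ubiquitylated when a crosslink is met, was at 37.4 and 42.1 CPM in sgGal4-4, 26.4 and 18.6 in sgMiat-6, and 13.4 and 14.2 in sgMiat-96. Its levels declined from control to sgMiat-6 to sgMiat-96 without overlap, at -1.17 ± 0.14 (SE; adjusted p = 7.76e-06), and with the length trend removed at -0.89 (adjusted p = 2.59e-05). Fanci (chr7:79391929-79450264, plus strand), the protein that pairs with Fancd2, was at 73.1 and 73.5 CPM in sgGal4-4, 82.9 and 91.8 in sgMiat-6, and 98.8 and 86.8 in sgMiat-96. All 4 Miat guide libraries lay above both controls, at 0.30 ± 0.10 (SE; adjusted p = 0.0183), and with the length trend removed at 0.57 (adjusted p = 0.000445). Fan1 (chr7:64346758-64374095, minus strand), a nuclease drawn to ubiquitylated Fancd2, was at 5.82 and 6.28 CPM in sgGal4-4, 4.71 and 3.22 in sgMiat-6, and 0.899 and 2.19 in sgMiat-96. It is one of the least abundant members and was lowest with sgMiat-96, at -1.29 ± 0.27 (SE; adjusted p = 0.000935) with both guides and -1.17 (adjusted p = 0.00178) with the length trend removed. Fanca (chr8:123268300-123318576, minus strand), a subunit of the core complex that modifies the pair, was at 24.9 and 29.8 CPM in sgGal4-4, 38.5 and 42.0 in sgMiat-6, and 36.7 and 35.7 in sgMiat-96. It was higher in every Miat guide library, at 0.48 ± 0.12 (SE; adjusted p = 0.00250), and with the trend removed at 0.73 (adjusted p = 0.000129). The core subunits Fancg and Fance had 0.33 ± 0.13 (SE; adjusted p = 0.0374) and 0.36 ± 0.11 (SE; adjusted p = 0.0113). Fancm, the translocase that anchors the core complex to DNA, fell as scaled at -0.45 ± 0.13 (SE; adjusted p = 0.00952), and with the length trend removed was 0.13 (adjusted p = 0.290). Of the 6 that were not called, the core subunits Fancb, Fancc, Fancf and Fancl were at -0.04, 0.09, -0.03 and 0.12. The helicase Brip1 and the nuclease scaffold Slx4 were at -0.20 and -0.07, and with the length trend removed at 0.32 (adjusted p = 0.0475) and 0.31 (adjusted p = 0.0144). Left out, sgGal4-4 replicate 1 ended the calls of Fanca (adjusted p = 0.102), Fanci (0.145), Fance (0.0663), Fancg (0.331) and Fancm (0.122), and sgGal4-4 replicate 2 those of Fanci (adjusted p = 0.138), Fance (0.154) and Fancg (0.109). Fancg was also not called without sgMiat-6 replicate 2 (adjusted p = 0.0528) or sgMiat-96 replicate 1 (0.0717).

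Of the remaining 3 genes, Parp1 (chr1:180568924-180601254, plus strand), the sensor that marks strand breaks with poly(ADP-ribose), was the most abundant repair gene per length. Its control level was 86.4 CPM per kb, ahead of Xrcc6 at 47.2 and Mdc1 at 24.2, and the lowest were Polq at 1.68, Dclre1c at 1.71 and Fan1 at 1.74 CPM per kb. Parp1 was at 339 and 323 CPM in sgGal4-4, 246 and 244 in sgMiat-6, and 183 and 219.7 in sgMiat-96. It fell with each guide without overlap, at -0.57 ± 0.09 (SE; adjusted p = 0.000118) with both, and was -0.41 (adjusted p = 0.000174) with the length trend removed. Polq, the polymerase of microhomology-mediated joining, was at 14.7 and 14.1 CPM in sgGal4-4, 17.5 and 11.9 in sgMiat-6, and 6.24 and 7.56 in sgMiat-96. The sgMiat-6 libraries spread to both sides of the controls while the sgMiat-96 libraries lay below, and the value with both guides was -0.51 ± 0.17 (SE; adjusted p = 0.0164). Xrcc1, the scaffold of single-strand break repair, was at 50.4 and 52.5 CPM in sgGal4-4, 52.8 and 66.4 in sgMiat-6, and 67.9 and 63.2 in sgMiat-96. Its Miat guide libraries lay just above the controls, and the log2 fold change was 0.28 ± 0.11 (SE; adjusted p = 0.0427). After the trend was removed Polq was 0.12 (adjusted p = 0.470) and Xrcc1 0.14 (adjusted p = 0.190). The call of Polq ended without sgGal4-4 replicate 1 (adjusted p = 0.0746) or sgMiat-96 replicate 1 (0.0638). That of Xrcc1 ended without sgGal4-4 replicate 1 (adjusted p = 0.240), sgGal4-4 replicate 2 (0.147), sgMiat-6 replicate 2 (0.108) or sgMiat-96 replicate 1 (0.0938).

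Ratios of partner genes, each level divided by transcript length, are given as a description without a test. Fanci over Fancd2 was 2.03 and 1.81 in sgGal4-4, 3.25 and 5.10 in sgMiat-6, and 7.64 and 6.33 in sgMiat-96. Nbn over Mre11a was 0.972 and 1.19 in sgGal4-4, 2.28 and 2.65 in sgMiat-6, and 2.69 and 2.37 in sgMiat-96. Both ratios were higher in all Miat guide libraries than in the controls. For the Ku pair, Xrcc6 over Xrcc5 was 6.10 and 7.22 in sgGal4-4, 5.97 and 7.56 in sgMiat-6, and 4.25 and 4.96 in sgMiat-96. The sgMiat-6 libraries spanned the control range and the sgMiat-96 libraries lay below it. For the obligate pair, Bard1 over Brca1 was 1.16 and 1.26 in sgGal4-4, 0.990 and 0.872 in sgMiat-6, and 1.41 and 1.13 in sgMiat-96. The sgMiat-6 libraries lay below the controls, and of the sgMiat-96 libraries 1 lay above and 1 below them. Rad50 over Mre11a was 0.747 and 0.744 in sgGal4-4, 0.861 and 0.934 in sgMiat-6, and 0.875 and 0.685 in sgMiat-96, with the sgMiat-96 libraries on both sides of the controls. For kinase pairs that do not form one complex, Chek1 over Atr was 2.26 and 2.44 in sgGal4-4, 4.29 and 4.68 in sgMiat-6, and 5.12 and 5.62 in sgMiat-96, and Chek2 over Atm was 2.97 and 3.83 in sgGal4-4, 2.73 and 3.12 in sgMiat-6, and 5.84 and 4.73 in sgMiat-96. Xrcc6 over Prkdc was 19.5 and 24.98 in sgGal4-4, 21.6 and 21.97 in sgMiat-6, and 27.8 and 28.8 in sgMiat-96. Chek1 over Atr was higher in all Miat guide libraries than in the controls, and the other two ratios were higher with sgMiat-96 only. The length trend was not removed from any of the ratios in this paragraph, and its part in them was not tested. The last 3 set a short transcript over a long one (Chek1 3397 bp and Atr 8074 bp, for example). Several of these genes overlap another coding gene on the opposite strand, such as Xrcc6 with Desi1, Mre11a with Ankrd49, Fanci with Polg and Fanca with Zfp276, as do Trp53bp1 with Tubgcp4 and Xrcc4 with Tmem167. Rnf8 overlaps the predicted gene Gm28043 on its own strand. In all, 14 of the 49 overlap a coding gene, and since strand use in counting is not stated, reads of such neighbours cannot be told apart.

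**Figure D5:**
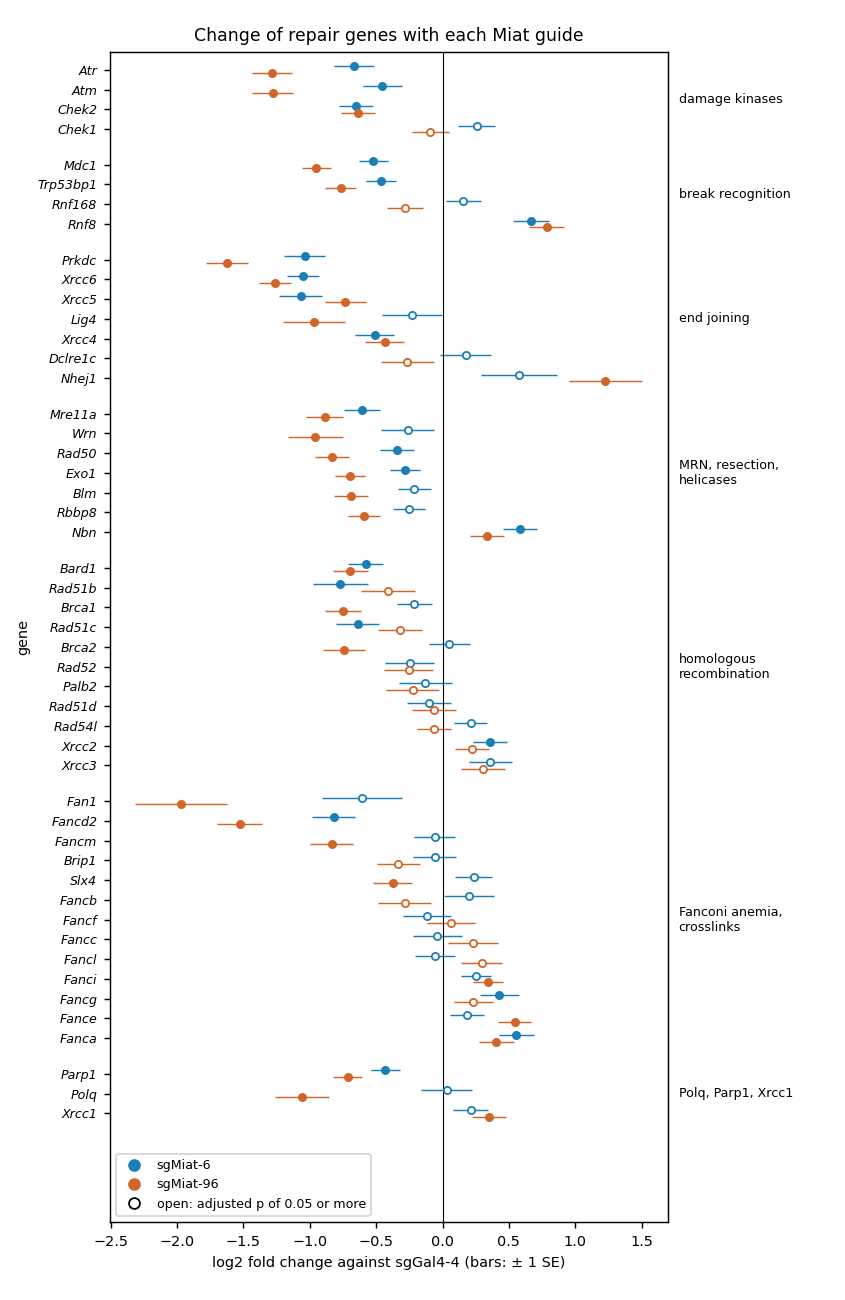
Log2 fold change of each repair gene against sgGal4-4 for sgMiat-6 (blue) and sgMiat-96 (orange), with bars of ± 1 SE and open points for an adjusted p of 0.05 or more. Atm, Polq, Brca2 and Fan1 lie farther left with sgMiat-96, while Chek2 and Rnf8 lie at about one value with both.

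The guides were also compared with each other. With sgMiat-96 against sgMiat-6, 18 of the 49 were lower and Fance alone higher, where 18.8% of all tested genes were called lower and 17.9% higher. With the length trend removed 4 were lower and 1 higher (11.3% and 13.3%). The 3 called lower in both scalings were Fan1, Fancd2 and Polq, again without a background share for both scalings. Fan1 had -1.36 ± 0.36 (SE; adjusted p = 0.0112) as scaled and -1.25 (adjusted p = 0.0220) with the length trend removed. Polq had -1.09 ± 0.21 (SE; adjusted p = 0.00231) and -0.59 (adjusted p = 0.0221), and Fancd2 -0.71 ± 0.17 (SE; adjusted p = 0.00758) and -0.45 (adjusted p = 0.0405). Atm and Brca2 had -0.83 ± 0.15 (SE; adjusted p = 0.00213) and -0.79 ± 0.16 (SE; adjusted p = 0.00296) as scaled. Without the length trend these were -0.23 (adjusted p = 0.140) and -0.22 (adjusted p = 0.211). Fance was at 25.7 and 24.2 CPM in sgGal4-4, 26.8 and 29.8 in sgMiat-6, and 37.2 and 35.4 in sgMiat-96, and both sgMiat-96 libraries lay above both sgMiat-6 libraries, at 0.36 ± 0.13 (SE; adjusted p = 0.0409). With the length trend removed Rad51d was the 1 gene higher, at 0.48 (adjusted p = 0.0488), again on its non-coding row. Xrcc6 joined the lower ones at -0.34 (adjusted p = 0.0335). Among the 12 repair genes over 6000 bp 9 were lower, where 57.5% of all tested genes of that length were. Without sgMiat-96 replicate 1 the number lower was 1, without sgMiat-6 replicate 1 it was 8, and without sgMiat-6 replicate 2 it was 22. The share of all tested genes called lower in these 3 fits was 3.60%, 8.19% and 23.2%, and the repair genes' count moved with it. In the same order the number lower with the length trend removed was 0, 1 and 6 (3.58%, 5.64% and 14.7% of all tested genes), and it was 2 without either control library (7.88% and 7.90%). In each scaling 1 gene was higher, but 3 were without sgMiat-6 replicate 2 (and 2 without sgMiat-96 replicate 2 with the trend removed), and no gene was called higher by edgeR without either control library, sgMiat-6 replicate 1 or sgMiat-96 replicate 1.

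Lists of other repair genes were counted the same way. Among 65 further tested genes of break and crosslink repair the median was -0.03 with both guides, and 22 rose while 17 fell (33.8% and 26.2%, beside 33.1% and 33.4% of all tested genes). Among them Rmi1, a partner of Blm, was at 112 and 108 CPM in sgGal4-4, 74.5 and 56.0 in sgMiat-6, and 31.0 and 38.2 in sgMiat-96. It fell without overlap, at -1.21 ± 0.12 (SE; adjusted p = 1.95e-06). In base excision repair 3 of 14 rose (21.4%) and 2 fell (14.3%), with Apex1 at 1.05 (0.67 with the length trend removed) and Fen1 at 0.74. In nucleotide excision repair 8 of 18 rose (44.4%) and 3 fell (16.7%), with Uvssa at -1.77 and Ercc6 at -1.21, or -1.22 and -0.58 with the trend removed. In mismatch repair 3 of 7 fell (42.9%) and 4 were not called, with Mlh3 at -1.56. With the length trend removed 2 of these 7 were higher (28.6%) and 3 lower (42.9%), beside 34.5% and 31.2% of all tested genes. In nucleotide excision repair 7 were then higher (38.9%) and 3 lower (16.7%), and in base excision repair 3 and 3 (21.4% each). Of the 65 further genes of break and crosslink repair 20 were then higher (30.8%) and 18 lower (27.7%). The difference between these lists and the 49 genes was not tested.

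Genes of the cell cycle and of the p53 response also differed between the groups, beside 33.1% higher and 33.4% lower among all tested genes. Of 20 S phase genes, 12 rose (60%) and 1 fell (5%) with both guides, with a median of 0.44, or 0.33 with the length trend removed. Gins2, a subunit of the replicative helicase, was at 41.4 and 41.4 CPM in sgGal4-4, 81.9 and 82.1 in sgMiat-6, and 121 and 103 in sgMiat-96, higher in every Miat guide library. Of 20 genes of G2 and mitosis, 10 fell (50%) and 4 rose (20%; median -0.28). Cenpf, a kinetochore protein, was at -1.67, or -0.89 with the length trend removed. The cyclin Ccnb2 was at 6.18, with 0.515 and 0.405 CPM in sgGal4-4, 33.0 and 30.5 in sgMiat-6, and 36.9 and 35.1 in sgMiat-96. Of 13 tested p53 pathway genes, 10 rose (76.9%) and 2 fell (15.4%; median 1.06). Cdkn1a, the cell cycle inhibitor that p53 induces, was at 118 and 114 CPM in sgGal4-4, 471 and 507 in sgMiat-6, and 661 and 619.9 in sgMiat-96. It rose by 2.27 ± 0.10 (SE; adjusted p = 6.85e-10), and Ccng1 by 2.05 ± 0.11 (SE; adjusted p = 4.27e-09). The part of these shifts in the levels of the repair genes was not tested.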

How the data were processed

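RNA was extracted with a column kit and made into mRNA libraries, per the labels' protocols. The submitters' processing notes name STAR and GRCm38 (mm10). The sources used here do not give the read counter, annotation release or strand use. Per the file headers, the authors deposited 3 values per RefSeq transcript, namely its count, FPKM and TPM. The count was tested, the FPKM gave lengths and zeros, and the TPM was left aside. Of 33984 rows for 24063 symbols, the row with the highest total count was kept per symbol, and 18 of the 49 repair genes had more than 1. The second sgMiat-96 library lists 1 count in 11223 rows whose FPKM is 0. These were treated as 0, which departs from the deposited counts.

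The repair genes, branches and lists were chosen with earlier results of these data known. The test was edgeR's quasi-likelihood F (edgeR 4.0.16, limma 3.58.1, R 4.3.3) following filterByExpr (minimum count 10, minimum total 15) and TMM scaling, in a model of 3 groups over 6 libraries with 3 residual degrees of freedom. P-values were adjusted by Benjamini-Hochberg over 13219 genes and called under 0.05. The biological coefficient of variation was 0.0986, the prior count 0.125, and 3 counts correspond to between 0.149 and 0.173 CPM. Standard errors were taken as the absolute log2 fold change over the root of F. To remove the length trend, a loess curve (span 0.3) fitted in each library entered as an offset. Between replicates the mean chi-square of a gene was 4.13 (sgGal4-4), 19.1 and 14.1, where 1 is sampling noise. Tested on simulated data with 12981 genes for both guides against sgGal4-4, the fit recovered 69.2% of 65 genes changed 1.5-fold, 92.3% of 65 changed 2-fold and 98.5% of 65 changed 4-fold, with 3 false among 172 calls. The simulation gave every gene and group the same spread, changed few genes, moved both guides alike and had no length trend. These data differ in each of these, so its share of false calls does not carry over to them. DESeq2 1.42.0 was an alternative, beside other scalings, no filter, listed zeros, the second row per symbol, a replicate block and leaving out each library.

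Given in full were the damage kinases, per branch up to 3 called genes with the largest change and the one highest per length, and up to 4 genes in each direction between guides. Others, such as Nbn, Nhej1, Fance and partner pairs, were chosen after their values were seen. Of each other list up to 2 called genes with the smallest adjusted p were named. Some genes this rule picks are not reported here. Coordinates are from GENCODE M21 on GRCm38, matched by accession for all 49 genes. Figures used Python 3.11.15 and matplotlib 3.10.9.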

Additional observations from a re-analysis of the deposited data

Results flagged for a closer look

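The log2 fold change against the shared control differed between the guides in 19 repair genes (18 lower and 1 higher, beside 18.8% and 17.9% of all tested genes), by edgeR's quasi-likelihood test of sgMiat-96 against sgMiat-6 with Benjamini-Hochberg adjustment. Lower with sgMiat-96, also once the length trend was removed, were Fan1 at -1.36 (-1.25 with the trend removed), Polq at -1.09 (-0.59) and Fancd2 at -0.71 (-0.45). Lower as scaled, but not called with the length trend removed, were Atm -0.83, Brca2 -0.79, Fancm -0.78, Lig4 -0.74, Wrn -0.69, Atr -0.62, Slx4 -0.61, Prkdc -0.59, Brca1 -0.54, Rad50 -0.49, Blm -0.48, Rnf168 -0.44, Mdc1 -0.43, Exo1 -0.41 and Rbbp8 -0.34, all as log2 values. Fance was higher with sgMiat-96 at 0.36, and 0.21 with the trend removed. All 19 calls ended without at least 1 of the 6 libraries. The cause of these differences was not tested.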

How the results depend on the processing

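Of 2744 values of single repair genes recomputed under the alternatives, 2494 kept their side of the threshold (70 of them values that were not called and changed sign), 182 lost a call, 52 gained one and 16 took the opposite sign. All 16 arose with the length trend removed. With both guides they were Trp53bp1 0.091, Brca1 0.0041, Brca2 0.43, Rad51d 0.45, Fancm 0.13, Brip1 0.32, Slx4 0.31 and Polq 0.12. With sgMiat-6 it was Atm 0.057, with sgMiat-96 Trp53bp1 0.20, Brca2 0.32, Rad51d 0.69, Brip1 0.40 and Slx4 0.18, and between guides Mdc1 0.014 and Prkdc 0.027. Removing the length trend gave 16 in place of 26 lower with both guides, 16 in place of 25 with sgMiat-96, 4 in place of 18 between guides and 12 in place of 5 higher with sgMiat-6. Scaling by total counts alone moved the median of all genes by -0.13 with both guides, -0.20 with sgMiat-96 and -0.14 between guides, and gave 4, 3 and 0 higher. With DESeq2 3 were higher with sgMiat-6, and between guides DESeq2, no filter on low counts, and the replicate block each gave 0 higher. Leaving out 1 library at a time gave 2 to 10 higher with both guides (5 to 14 with the length trend removed, and 10 to 18 lower), 1 to 7 higher with sgMiat-6 (6 to 12 with the trend removed), 3 to 7 higher with sgMiat-96 (5 to 11 with the trend removed, and 9 to 18 lower), and between guides 0 to 3 higher and 1 to 22 lower (0 to 3 and 0 to 6 with the trend removed). Fits without a library rest on fewer samples, and the cause of the other changes was not tested. Replicate numbers of different groups showed no pairing (correlations of deviations 0.0103, -0.0900 and -0.213), and the replicate block gave 6 higher and 26 lower with both guides, and with the length trend removed 0 higher between guides. Groups of 2 libraries with 3 residual degrees of freedom, and Fan1 and Nhej1 at a few CPM, limit what small differences can show.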
